A study of Macaca mulatta with 16 samples.

Results

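The genes described here encode the proteins of the neurotransmitter vesicle, of its fusion machinery and of the ribbon synapse, and they were followed in the fetal retina of the rhesus monkey (Macaca mulatta). They were picked by a rule on symbols that used no measured value, although the set was chosen with earlier results of these data known. The rule named all symbols of a number after SYT, STX, STXBP, VAMP or SNAP, the complexins, SV2 proteins, RAB3 proteins and synapsins. SYP, BSN, PCLO, CTBP2, CACNA1F, RIMS1 and RIMS2 were added by name. The rule took 69 of the 28633 gene IDs in the mRNA table, each symbol on 1 ID. CPLX3 and SYN2 were not found under these symbols and were not analysed here.

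Punches of retina came from the temporal side of the eye, where the presumptive fovea lies, and from the matching place on the nasal side, in fetuses of 50, 90 and 150 days of gestation for which the labels name no treatment, genotype or strain. At 50 days the table held 1 value per region, the authors' mean over 3 samples, so that no spread could be computed; at 90 and 150 days it held 1 library per region. No difference within an age has a replicate check. The labels do not say whether the temporal and nasal punches of an age came from 1 fetus. A regional difference at 90 or 150 days may therefore also be one between animals. Age and animal cannot be told apart either. According to the study's methods the punch took in a different share of the retina at each age and reached beyond the foveal anlage at the youngest age.

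Levels are CPM (reads of a gene scaled to a common library size), which are not divided by gene length, so the values of different genes are not set against each other. The libraries at 90 and 150 days held 17429349 to 19851990 recovered reads. A ratio of 2 libraries is followed in parentheses by its 95% exact (Clopper-Pearson) interval, which covers counting error only and compares those libraries, not the conditions. Log2 ratios and log2 changes are on the log2(CPM + 1) scale, which understates differences of low genes, and a gene was called 2-fold apart when its log2 value was at least 1 in size with at least 5 CPM on the higher side. Of the 69 genes, 66 reached 1 CPM and 61 reached 5 CPM in at least 1 column.

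A neuron releases transmitter when SNARE proteins on a vesicle (VAMP) and on the cell membrane (syntaxin and SNAP25) zip together and merge the membranes. Synaptotagmins sense the calcium that triggers this step, complexins hold and promote the assembled SNAREs, and Munc18 proteins (STXBP) guide syntaxin. Photoreceptors and bipolar cells of the retina release transmitter continuously from ribbon synapses, where a plate of the protein RIBEYE, made from the CTBP2 gene, tethers vesicles beside L-type calcium channels. Amacrine and ganglion cells have conventional synapses without a ribbon.

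The punches carried markers of retina in all 6 columns: the photoreceptor transcription factor CRX lay between 19.0 and 844 CPM, and PAX6 between 353 and 803 CPM. The 17 photoreceptor markers found in the table summed to 170 and 91.7 CPM (temporal and nasal) at 50 days, 1204 and 915 CPM at 90 days, and 11983 and 11617 CPM at 150 days. The 10 ganglion cell markers found summed to 935 and 1044, then 2713 and 1939, then 8106 and 3175 CPM in the same order. The 8 progenitor and cell cycle markers summed to 2560 and 3230 CPM at 90 days and 576 and 679 CPM at 150 days. The 8 pigment epithelium markers summed to no more than 90.9 CPM in any column. The 6 microglial markers summed to no more than 28.2 CPM and 5 blood markers to no more than 144 CPM. The 7 vessel markers summed to 658 to 931 CPM, of which KDR made 489 to 854 CPM. At 90 days 6 of the 7 vessel markers and all 3 blood markers of at least 1 CPM were lower temporally. CDH5 was then 0.556 CPM temporally and 12.9 CPM nasally, and HBA was 4.6 and 28.6 CPM. In bulk tissue, fewer cells of a type and less RNA per cell cannot be told apart.

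Of the 66 synaptic genes of at least 1 CPM, 48 were higher at 150 days than at 90 days, against 50.4% of all 14474 genes, and SNAREs, complexins and ribbon genes were among those at least 2-fold higher. Across the 60 genes that passed the expression minimum for this step, 12 were at least 2-fold higher at 150 days, against 9.1% of all 12343 genes, and 2 were at least 2-fold lower, against 7.64%. The median log2 change from 90 to 150 days was 0.34 over the synaptic genes and 0.01 over all genes. The direction was shared by both regions in 49 of 61 genes, against 81.8% of all 12519 genes. Among the 61 genes 10 were 2-fold higher in each region (CACNA1F, PCLO, RIMS2, CPLX1, CPLX4, SNAP25, STX3, VAMP1, SYP and SV2B), against 7.01% of all genes, and 1 was 2-fold lower in each, against 6.12%. Over the same step all 17 photoreceptor markers were at least 2-fold higher and 7 of 8 progenitor markers at least 2-fold lower, and the part of any cell type in the change of the synaptic genes was not tested.

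From 50 to 90 days the genes went both ways: 20 of 60 were at least 2-fold higher, against 30.1% of all 12388 genes, and 15 were at least 2-fold lower, against 20.5%. The median log2 change was 0.27 over the synaptic genes and 0.09 over all genes, and for the synaptic genes it was 0.15 after rescaling by median ratios, which moved the median of all genes by -0.13, and 0.029 in the nasal region alone. The mean of both regions was highest at 50 days in 21 of the 66 genes, at 90 days in 11 and at 150 days in 34, against 41.1%, 22.6% and 36.2% of all 15839 genes. According to the series' description the libraries of the later ages were read from both ends, whereas the study's methods give single-end reads, so that age and read layout cannot be told apart in this step.

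**Figure D1:**
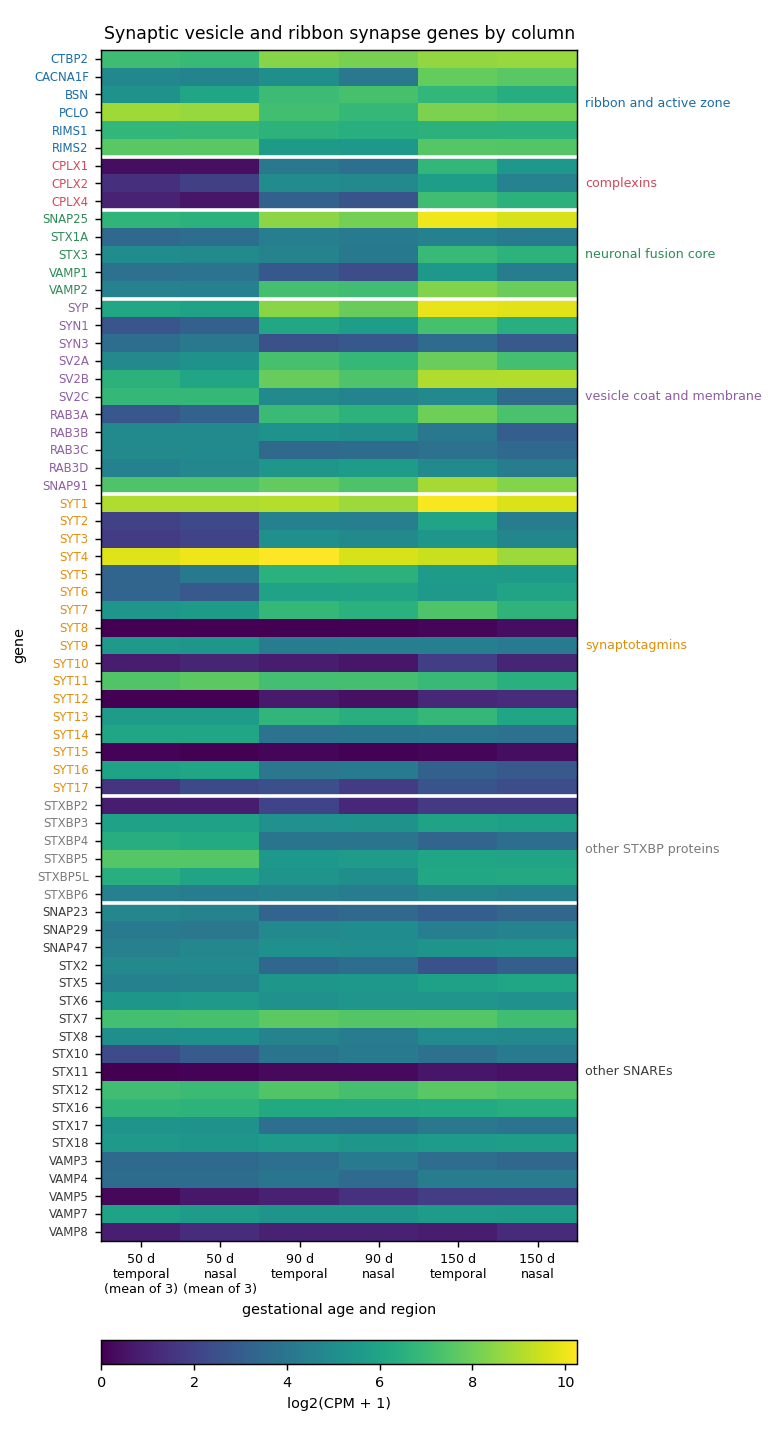
Level of 67 of the 69 genes on the log2(CPM + 1) scale (colour) in the 6 columns of the table, temporal and nasal at 50 days (authors' means of 3 samples), 90 days and 150 days (1 library each), with genes grouped by role. Among the brightest rows at 150 days are SNAP25, SYP and SYT1, while SYT4 was brightest in the 90-day temporal library, at 1223 CPM.

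Among the ribbon and active zone genes, CACNA1F, RIMS2 and PCLO were at least 2-fold higher at 150 than at 90 days, whereas RIMS1 stayed near one level from 50 days on. CACNA1F, the pore of the L-type channel that opens at photoreceptor terminals, was 26.7 CPM temporally and 24 CPM nasally at 50 days, 33.6 and 16.5 CPM at 90 days, and 229 and 198 CPM at 150 days. The 150-day library exceeded the 90-day library 6.82-fold (6.29 to 7.42) temporally and 12-fold (10.8 to 13.5) nasally. At 90 days the temporal library held 2.04-fold (1.79 to 2.33) as much as the nasal one, and at 150 days 1.16-fold (1.11 to 1.21) as much. The log2 ratio of 0.99 at 90 days lay just below the 2-fold call. CACNA1F lies next to SYP with 0 protein-coding genes between them in a newer RefSeq annotation of the rhesus genome (T2T-MMU8v2.0), and whether counting used strand is not stated.

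CTBP2, the source of RIBEYE, was at 50 days 133 CPM in temporal and 120.3 CPM in nasal retina, at 90 days 332 and 286 CPM, and at 150 days 385 and 412 CPM. These counts take in both products of the gene, the ribbon protein and the transcriptional corepressor CtBP2, which cannot be told apart. From 50 to 90 days its log2 change was 1.28, and from 90 to 150 days 0.37. The total of CTBP2 was thus within 2-fold between the last ages while CACNA1F was several times higher. The course of the ribbon product alone cannot be read from that total.

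Piccolo (PCLO) and bassoon (BSN) are giant scaffold proteins of the active zone, and bassoon anchors ribbons in the mouse retina. PCLO was 448 CPM temporally and 406 CPM nasally at 50 days, 139 and 114 CPM at 90 days, and 297 and 277 CPM at 150 days. Its log2 changes were -1.74 and then 1.17, so that PCLO was lowest at 90 days. RIMS2, a RIM protein that links vesicles to calcium channels, had the same trough and was at 50 days 199.8 CPM in temporal and 199.9 CPM in nasal retina, at 90 days 47.6 and 43.6 CPM, and at 150 days 187 and 179.5 CPM. Between 90 and 150 days RIMS2 was 3.92-fold (3.64 to 4.21) higher temporally and 4.12-fold (3.83 to 4.44) higher nasally. Its relative RIMS1 was 110.2 CPM temporally and 112 CPM nasally at 50 days, 98.3 and 88.9 CPM at 90 days, and 96.3 and 91.5 CPM at 150 days, with log2 changes of -0.25 and 0.01.

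BSN had the opposite course to PCLO and was 37.4 CPM temporally and 64.3 CPM nasally at 50 days, 129 and 151 CPM at 90 days, and 108 and 83.9 CPM at 150 days. Its temporal to nasal log2 ratio went from -0.77 at the youngest age through -0.23 to 0.36 at the oldest. It was thus lower on the temporal side at the earlier ages and higher there at 150 days.

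All 3 complexins in the table were at least 2-fold higher at 90 than at 50 days, and CPLX1 and CPLX4 again from 90 to 150 days. CPLX1, a complexin of conventional synapses, was 0.292 CPM temporally and 0.33 CPM nasally at 50 days, 16.2 and 12.5 CPM at 90 days, and 109 and 43.7 CPM at 150 days. CPLX4, which in the mouse retina belongs to ribbon synapses, was at 50 days 1.04 CPM in temporal and 0.556 CPM in nasal retina, at 90 days 7.99 and 5.41 CPM, and at 150 days 137 and 95.1 CPM. The 150-day to 90-day ratio of CPLX4 was 17.1-fold (14.6 to 20.2) temporally and 17.6-fold (14.6 to 21.4) nasally, the largest among the 61 genes of at least 5 CPM in either region. CPLX2, a second complexin of conventional synapses, was 1.71 CPM temporally and 2.84 CPM nasally at 50 days, 29.7 and 27.8 CPM at 90 days, and 51.8 and 22.1 CPM at 150 days.

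The regions parted after 90 days for CPLX1 and CPLX2, whereas the ratio of CPLX4 was similar at both ages. At 150 days the temporal library exceeded the nasal one 2.49-fold (2.3 to 2.7) for CPLX1 and 2.34-fold (2.09 to 2.63) for CPLX2, compared with 1.29-fold (1.1 to 1.53) and 1.07-fold (0.953 to 1.2) at 90 days. CPLX4 was 1.44-fold (1.35 to 1.53) higher temporally at 150 days and 1.48-fold (1.15 to 1.9) higher at 90 days, and these intervals overlapped. For CPLX2 the later library was 1.74-fold (1.57 to 1.93) higher in the temporal region and 1.26-fold (1.11 to 1.43) lower in the nasal region.

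**Figure D2:**
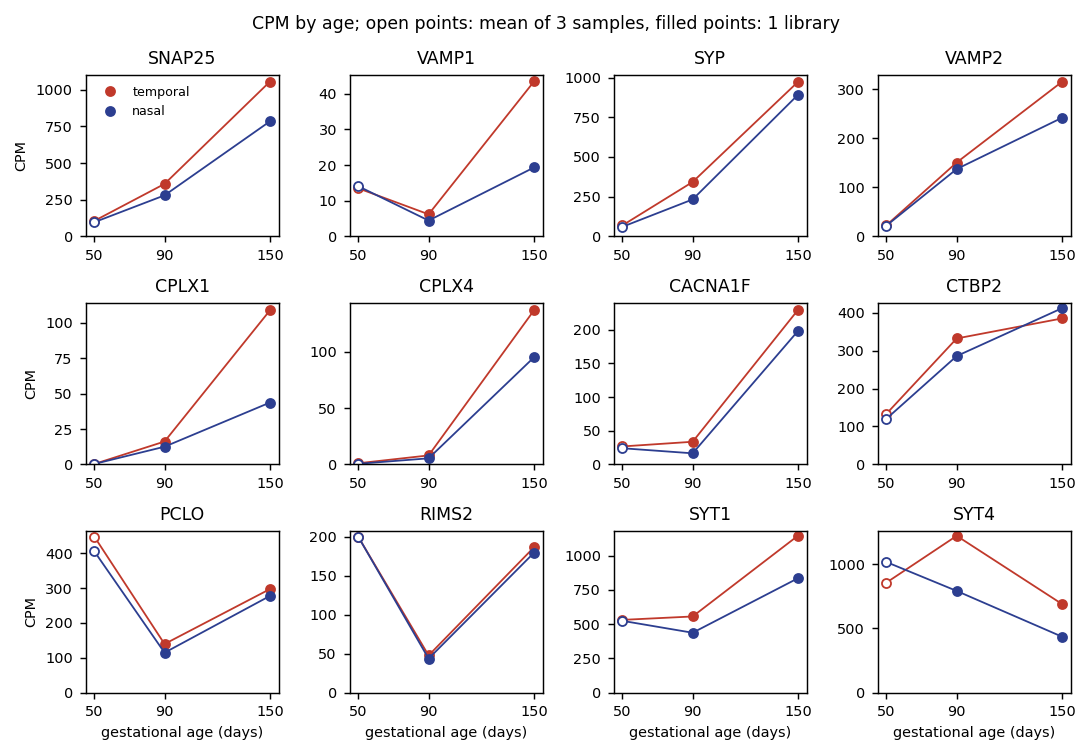
CPM of 12 of the genes against gestational age (50, 90 and 150 days), temporal in red and nasal in blue, with open points for the authors' mean of 3 samples and filled points for single libraries. SNAP25, VAMP1, SYP, VAMP2, CPLX1 and CPLX4 were highest at 150 days in both regions, PCLO, RIMS2 and VAMP1 were lowest at 90 days, and SYT4 was lower at 150 than at 90 days in both regions.

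All 7 genes of the neuronal fusion core were highest at 150 days, 4 of them were at least 2-fold higher there than at 90 days, and the median log2 change over that step was 1.03. SNAP25, the membrane-bound SNARE of neurons, was 105 CPM temporally and 96 CPM nasally at 50 days, 358 and 279.7 CPM at 90 days, and 1057 and 785 CPM at 150 days. It was at least 2-fold higher at each step, on the mean of the regions. VAMP2, the vesicle SNARE that pairs with it, was 22.5 CPM temporally and 21.8 CPM nasally at 50 days, 150.4 and 137 CPM at 90 days, and 315 and 242 CPM at 150 days.

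The syntaxins of this role differed in their course. STX3, the syntaxin that replaces syntaxin 1 at ribbon synapses, was 30.7 CPM temporally and 29.2 CPM nasally at 50 days, 23 and 16.7 CPM at 90 days, and 124 and 97.3 CPM at 150 days. Its 150-day library was 5.38-fold (4.86 to 5.96) higher temporally and 5.81-fold (5.19 to 6.53) higher nasally than at 90 days; a newer gene name table gives its ID the symbol MRPL16, so these reads may not be those of STX3. STX1A, a syntaxin of conventional synapses, had a log2 change of 0.08 over the same step and was at 50 days 10.4 CPM in temporal and 12.2 CPM in nasal retina, at 90 days 20.1 and 17 CPM, and at 150 days 21.8 and 17.7 CPM.

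VAMP1, the sister of VAMP2, had a trough at 90 days and was 13.5 CPM temporally and 14 CPM nasally at 50 days, 6.17 and 4.42 CPM at 90 days, and 43.4 and 19.3 CPM at 150 days. It was 7.04-fold (5.81 to 8.59) higher temporally and 4.37-fold (3.48 to 5.53) higher nasally at 150 than at 90 days. The temporal library held 2.25-fold (1.99 to 2.55) as much VAMP1 as the nasal one at 150 days, and 1.4-fold (1.06 to 1.85) as much at 90 days. Every gene of the fusion core was higher temporally at 90 and at 150 days, with role medians of the log2 ratio of 0.32 and 0.41.

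Some genes of the vesicle coat and membrane, among them RAB3A and SYN1, were at low level at 50 days, whereas others, such as SNAP91 and SV2C, were not. RAB3A, the small GTPase that brings vesicles to the active zone, was 5.93 CPM temporally and 8.4 CPM nasally at 50 days, 126 and 98.8 CPM at 90 days, and 257 and 158 CPM at 150 days. Its log2 change of 3.79 from 50 to 90 days was the largest of all 69 genes on the log2(CPM + 1) scale. That scale gave 3.55 for CPLX1, whose mean was 0.311 CPM at 50 days and 14.3 CPM at 90 days. SYN1, which ties vesicles to the cytoskeleton and is absent from ribbon terminals of the mouse retina, was at 50 days 5.47 CPM in temporal and 7.74 CPM in nasal retina, at 90 days 69.2 and 51.4 CPM, and at 150 days 152 and 87 CPM. SYP (synaptophysin), an abundant membrane protein of vesicles at ribbon and conventional synapses, was 68.6 CPM temporally and 59.7 CPM nasally at 50 days, 343 and 232 CPM at 90 days, and 974 and 893 CPM at 150 days. SYP stood 1.47-fold (1.42 to 1.53) higher temporally at 90 days and 1.09-fold (1.07 to 1.11) higher at 150 days.

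The SV2 proteins, vesicle glycoproteins that also act as toxin receptors, took different courses. SV2B, the form of ribbon terminals in the mouse retina, was 96.6 CPM temporally and 65.4 CPM nasally at 50 days, 231 and 171 CPM at 90 days, and 529.8 and 543 CPM at 150 days. SV2A, the widespread form in the brain, was at 50 days 27.3 CPM in temporal and 36.7 CPM in nasal retina, at 90 days 152 and 114 CPM, and at 150 days 237 and 144 CPM. SV2C was 114 CPM temporally and 113 CPM nasally at 50 days, 28.6 and 23.8 CPM at 90 days, and 27.1 and 10.7 CPM at 150 days, and its log2 change from 50 to 90 days was -2.07. At 150 days the nasal library was 2.21-fold (1.88 to 2.61) lower than at 90 days for SV2C, whereas the temporal library was 1.06-fold (0.934 to 1.19) lower. The temporal to nasal ratios at 150 days were therefore 2.52-fold (2.15 to 2.97) for SV2C and 1.65-fold (1.57 to 1.73) for SV2A, but 0.975-fold (0.949 to 1.00) for SV2B.

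RAB3B, a relative of RAB3A, was lowest at the last age and was 28.5 CPM temporally and 28.6 CPM nasally at 50 days, 36.6 and 33.8 CPM at 90 days, and 16.2 and 7.43 CPM at 150 days. Its 150-day library was 2.25-fold (1.97 to 2.59) lower temporally and 4.55-fold (3.81 to 5.46) lower nasally than at 90 days, the only gene 2-fold lower in both regions, and the temporal library then held 2.18-fold (1.79 to 2.68) as much as the nasal one. RAB3D was at 50 days 21.7 CPM in temporal and 26.1 CPM in nasal retina, at 90 days 41.9 and 48.5 CPM, and at 150 days 28.4 and 19.6 CPM, but a newer gene name table gives this ID the symbol RAB3A, so which of the GTPases it counts is uncertain. SYN3 was 11.9 CPM temporally and 16.4 CPM nasally at 50 days, 4.9 and 6.11 CPM at 90 days, and 11.1 and 6.24 CPM at 150 days. SNAP91, a clathrin assembly protein (AP180) that the symbol rule took although it is no SNARE, was at 50 days 171 CPM in temporal and 173 CPM in nasal retina, at 90 days 222 and 167 CPM, and at 150 days 468 and 326 CPM. RAB3C, the remaining gene of the role, had log2 changes of -1.29 and 0.09.

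Among the 17 synaptotagmins, the neuronal calcium sensor SYT1 was at high level from 50 days on. SYT2 and SYT3 were below 5 CPM at 50 days and above it at 90 days, while several others dropped below their early level. SYT1 was 531 CPM temporally and 524 CPM nasally at 50 days, 556 and 437 CPM at 90 days, and 1146 and 835 CPM at 150 days. SYT4, a synaptotagmin whose first C2 domain lacks a calcium-binding residue, was at 50 days 858 CPM in temporal and 1018 CPM in nasal retina, at 90 days 1223 and 793 CPM, and at 150 days 690.3 and 436 CPM. The later library was 1.77-fold (1.73 to 1.81) lower temporally and 1.82-fold (1.77 to 1.87) lower nasally for SYT4 at 150 than at 90 days.

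SYT2, a fast calcium sensor of hindbrain synapses and of certain bipolar cells in the mouse retina, separated the regions most. It was 3.01 CPM temporally and 3.75 CPM nasally at 50 days, 22 and 19.7 CPM at 90 days, and 63.3 and 19.3 CPM at 150 days. In the temporal region the 150-day library was 2.87-fold (2.57 to 3.21) higher than the 90-day one, and in the nasal region the ratio was 0.98-fold (0.851 to 1.13). The temporal to nasal ratio of SYT2 at 150 days, 3.28-fold (2.92 to 3.69), was the largest among the 61 genes of at least 5 CPM there, against 1.12-fold (0.976 to 1.28) at 90 days.

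Some synaptotagmins were far above their 50-day level at 90 days, among them SYT3 and SYT6, which belong to a subgroup that forms disulphide-linked pairs. SYT3 was 2.56 CPM temporally and 3.19 CPM nasally at 50 days, 34 and 28.6 CPM at 90 days, and 42.6 and 25.2 CPM at 150 days. SYT5 was at 50 days 9.15 CPM in temporal and 16.8 CPM in nasal retina, at 90 days 94 and 96.5 CPM, and at 150 days 50.5 and 47.3 CPM. SYT6 was 9.08 CPM temporally and 6.31 CPM nasally at 50 days, 59.3 and 62.1 CPM at 90 days, and 45.4 and 63.2 CPM at 150 days. In each case both regions at 90 days lay above both at 50 days. Their log2 changes from 50 to 90 days were 3.06, 2.78 and 2.83, and those from 90 to 150 days were 0.11, -0.95 and -0.16. SYT6 was one of the few synaptotagmins lower on the temporal side at 150 days, when the nasal library exceeded the temporal one 1.39-fold (1.27 to 1.52).

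Others were highest at 50 days. SYT14 was 63.6 CPM temporally and 64.6 CPM nasally at 50 days, 14 and 14.8 CPM at 90 days, and 15.1 and 13.3 CPM at 150 days. SYT16 was at 50 days 60.2 CPM in temporal and 65.8 CPM in nasal retina, at 90 days 15.9 and 17.9 CPM, and at 150 days 8.11 and 6.24 CPM, and was the only gene at least 2-fold lower at each step. SYT11, which does not bind calcium, was 178 CPM temporally and 202 CPM nasally at 50 days, 145 and 149 CPM at 90 days, and 119 and 90.8 CPM at 150 days. SYT9, another fast calcium sensor, was likewise lower later, with a log2 change of -1.14 from 50 to 90 days and 0.00 from 90 to 150 days.

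SYT7, a slow sensor of high calcium affinity, was 40.4 CPM temporally and 47.3 CPM nasally at 50 days, 113 and 92.2 CPM at 90 days, and 172 and 99.8 CPM at 150 days. It was 1.72-fold (1.63 to 1.82) higher temporally at 150 days, and SYT13, which lacks calcium binding, was 1.72-fold (1.61 to 1.85) higher. SYT8, SYT10, SYT12 and SYT15 stayed below 5 CPM in every column, and SYT17 reached 5.28 CPM.

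The other STXBP proteins and the SNAREs of the Golgi, endosomes and other membranes had median log2 changes from 90 to 150 days of 0.32 and 0.12 and no 2-fold gene among them in either direction. STXBP5 (tomosyn), which binds SNAREs and holds back release, was 187 CPM temporally and 189 CPM nasally at 50 days, 43.3 and 48.9 CPM at 90 days, and 65.7 and 63 CPM at 150 days. Its relative STXBP5L was at 50 days 87 CPM in temporal and 63.3 CPM in nasal retina, at 90 days 38.4 and 33.3 CPM, and at 150 days 67.7 and 71.9 CPM. STXBP4, a syntaxin-binding protein studied in fat cells, was 82.4 CPM temporally and 76.3 CPM nasally at 50 days, 14.9 and 14.5 CPM at 90 days, and 9.2 and 12.1 CPM at 150 days, and its log2 change of -2.35 from 50 to 90 days was the lowest of all 69 genes. The remaining Munc18 proteins and STXBP6 (amisyn) lay between 0.708 and 59.2 CPM.

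STX7, a SNARE of late endosomes, was 147 CPM temporally and 152 CPM nasally at 50 days, 203 and 179.7 CPM at 90 days, and 185 and 139 CPM at 150 days. SNAP23, the widely expressed relative of SNAP25, was at 50 days 26 CPM in temporal and 23.3 CPM in nasal retina, at 90 days 9.3 and 10.7 CPM, and at 150 days 7.3 and 9.33 CPM. STX2, a syntaxin of the cell membrane, was 27.2 CPM temporally and 28.2 CPM nasally at 50 days, 10.1 and 12 CPM at 90 days, and 5.01 and 7.53 CPM at 150 days. SNAP23 and STX2 were thus at their lowest at 150 days, when SNAP25 was at its highest. STX10, of the trans-Golgi network, was at 50 days 4.12 CPM in temporal and 6.64 CPM in nasal retina, at 90 days 14.3 and 17.8 CPM, and at 150 days 13.3 and 18.2 CPM, with the nasal value above the temporal one at each age. STX5, of the Golgi, was 22 CPM temporally and 22.9 CPM nasally at 50 days, 41.9 and 43.2 CPM at 90 days, and 56.9 and 64.4 CPM at 150 days.

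VAMP7, a vesicle SNARE of lysosomes and growing neurites, was 60.1 CPM temporally and 49.6 CPM nasally at 50 days, 38.3 and 38.4 CPM at 90 days, and 50.5 and 46.6 CPM at 150 days. VAMP3 (cellubrevin), of recycling endosomes, was at 50 days 10.5 CPM in temporal and 10.4 CPM in nasal retina, at 90 days 12.6 and 17.3 CPM, and at 150 days 11.5 and 9.43 CPM. SNAP29, a SNARE of intracellular membranes, was 18.1 CPM temporally and 15.9 CPM nasally at 50 days, 27.6 and 31 CPM at 90 days, and 20.7 and 23.3 CPM at 150 days. These values stayed within 2-fold from age to age. Of the others in this role, STX17, an autophagosome SNARE, was at least 2-fold lower at 90 than at 50 days (log2 change -1.57), STX6, STX8, STX12, STX16, STX18, SNAP47 and VAMP4 stayed within 2-fold at both steps, and STX11, VAMP5 and VAMP8 stayed below 5 CPM. VAMP5 and VAMP8 are neighbours with 0 protein-coding genes between them in the newer annotation.

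Temporal and nasal retina were compared to ask which of these genes differ at the presumptive fovea. At 50 days 0 of 55 genes were at least 2-fold higher temporally and 0 nasally, against 0.197% and 0.861% of all 11154 genes. At 90 days the counts were 0 and 0 of 60, against 0.792% and 0.581% of 11870 genes. At 150 days 6 of 61 were at least 2-fold higher temporally (CPLX1, CPLX2, VAMP1, SV2C, RAB3B and SYT2) and 0 nasally, against 1.61% and 0.92% of 12067 genes.

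The ratios without a fold minimum moved in the same order. Temporal was above nasal in 27 of 62 genes at 50 days, 42 of 63 at 90 days and 48 of 66 at 150 days, against 47.3%, 54.4% and 44.4% of all genes. The median log2 ratio was -0.02, 0.15 and 0.21 over the synaptic genes and -0.02, 0.02 and -0.04 over all genes. By role the median at 150 days was 1.19 for the complexins, 0.69 for vesicle coat and membrane, 0.41 for the fusion core and 0.39 for the synaptotagmins, but 0.09 for ribbon and active zone genes, 0.03 for other STXBP proteins and -0.06 for other SNAREs.

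At 50 days the widest ratios were on the nasal side. SYT5 had a log2 ratio of -0.81, BSN of -0.77, STX10 of -0.58, RAB3A of -0.44, and SYN1 and SYN3 of -0.43 each. On the temporal side, SV2B had 0.56, SYT6 0.46 and STXBP5L 0.45. These are ratios of means of 3 samples with no error given. At 90 days the widest temporal ratios after CACNA1F were those of SYT4, SYP, CPLX4, SV2B and STX3, among genes of at least 5 CPM. SV2B had a log2 ratio of 0.44 and STX3 of 0.43, closely followed by SYN1 with 0.42 and SV2A with 0.41. The 6 ribbon and active zone genes had a median of 0.18, with 5 above 0 and 1 below. SYT4 was then 1.54-fold (1.51 to 1.57) higher temporally, and VAMP3 was 1.37-fold (1.16 to 1.62) higher nasally.

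**Figure D3:**
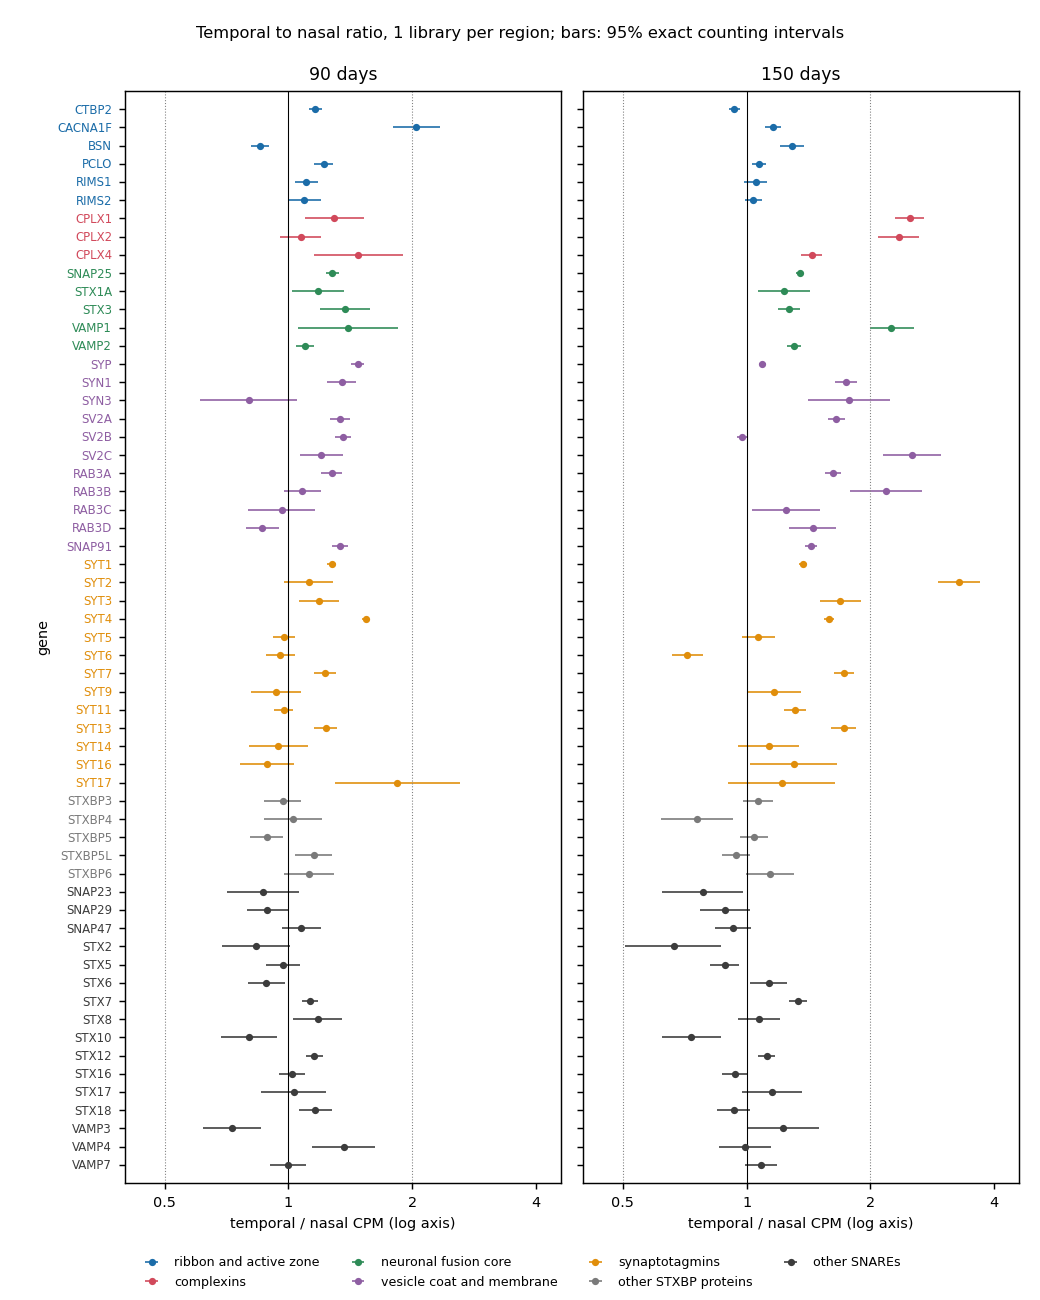
Temporal to nasal ratio of CPM at 90 days (left) and 150 days (right) for 59 genes of at least 5 CPM, on a log axis, coloured by role; bars are 95% exact counting intervals and dotted lines mark 2-fold. At 90 days only the point of CACNA1F reaches the 2-fold line, at 2.04, while at 150 days SYT2, SV2C, CPLX1, CPLX2, VAMP1 and RAB3B lie beyond it on the temporal side.

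The nasal extremes at 150 days were smaller than the temporal ones. The nasal library exceeded the temporal one 1.5-fold (1.15 to 1.97) for STX2, 1.39-fold (1.27 to 1.52) for SYT6, 1.36-fold (1.15 to 1.61) for STX10, 1.32-fold (1.08 to 1.61) for STXBP4 and 1.28-fold (1.02 to 1.61) for SNAP23.

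Markers of ganglion cells moved with the temporal values at 150 days. Of the 9 ganglion cell markers that passed the expression minimum, 6 were at least 2-fold higher temporally, and the median log2 ratio over the list was 1.15. The neurofilament genes NEFL and NEFM were 3452 CPM temporally and 1278 CPM nasally, and 2679 CPM temporally and 936 CPM nasally. SLC17A6, the vesicular glutamate transporter of ganglion cells, was 332 CPM temporally and 123 CPM nasally, while ISL1, shared by ganglion and bipolar cells, was 85.6 CPM temporally and 85.7 CPM nasally. POU4F1 and POU4F2 were not analysed here. The median log2 ratio at 150 days was 0.33 for Mueller glia markers (7 of 9 above 0), 0.20 for amacrine and horizontal cell markers (8 of 10), 0.18 for photoreceptor markers (12 of 17), -0.03 for bipolar markers (5 of 13) and -0.37 for progenitor markers (2 of 8). The part of these cell types in the synaptic gene ratios was not tested.

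Markers of bipolar cells and photoreceptors moved with the temporal values at 90 days, with median log2 ratios of 1.43 and 0.61, against 0.15 for the synaptic genes. The median was 0.31 for ganglion cell markers, of which 9 of 10 were above 0. The part of these cell types in the ratios of the synaptic genes at 90 days was not tested.

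Across 90 and 150 days the region was tested in 4 libraries with limma, with age as a covariate, over 14131 genes. This fit had 1 residual degree of freedom, moderated over genes, and its p-values measure the spread of the regional difference between the ages, which may come from 1 fetus each. SYT4 was the only synaptic gene called: it was higher temporally by 0.64 (SE 0.12) on the log2 scale, with an adjusted p of 0.0222 by limma, and was higher at both ages. Temporal calls made up 0.722% of all genes tested. On recovered reads the adjusted p of SYT4 was 0.354 by edgeR and 0.0172 by DESeq2. No synaptic gene was called after rescaling by median ratios or with no filter on low values, where the lowest adjusted p by limma among them was 0.161 and 0.218. With no age term none was called either (lowest adjusted p by limma 1.00). That fit takes the change between the ages as residual spread.

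The next genes did not pass: SV2A differed by 0.57 (adjusted p = 0.0607), SYN1 by 0.61 (adjusted p = 0.0648) and CPLX1 by 0.82 (adjusted p = 0.0796) by limma. At an unadjusted p under 0.05, 23 of 64 synaptic genes were higher temporally and 0 nasally, against 6.73% and 5.31% of all genes. Without the age term that count was 0. That fit takes the change between the ages as residual spread, so its 0 does not bear on the 23. Among the 23 were SNAP25, SYT1, SYP, SNAP91, RAB3A, CACNA1F and STX3.

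The length of the gene moved with the change from 50 to 90 days. Gene span, the distance from start to end of a gene, was taken from the newer RefSeq annotation for the 61 synaptic genes of at least 5 CPM and for 10550 of 13108 genes in all. The median log2 change of all genes was 1.27 in the shortest eighth of spans and -0.58 in the longest, and 17 of the 61 synaptic genes were in the longest eighth, among them PCLO, RIMS1, RIMS2, SYT1, SYT14, SYT16, SV2C and STXBP5. Across genes, which share the same libraries and are not independent replicates, Spearman's rho of span with this change was -0.53 over the 61 and -0.44 over all. From 90 to 150 days rho was 0.06 and -0.06.

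Less the median change of all genes in the same eighth, 20 of the 61 synaptic genes were 2-fold higher and 11 were 2-fold lower from 50 to 90 days, against 22.9% and 17.4% of the 10550 genes. PCLO then had a log2 change of -1.16 and RIMS2 of -1.53, VAMP1, a short gene, of -2.18 and CPLX1 of 3.66. From 90 to 150 days 14 were 2-fold higher and 3 were 2-fold lower on this measure, against 9.9% and 7.57%. Age and any change in read layout cannot be told apart in the relation to span. The temporal to nasal log2 ratio at 150 days had a rho with span of 0.22 over all genes and -0.11 over the synaptic genes.

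**Figure D4:**
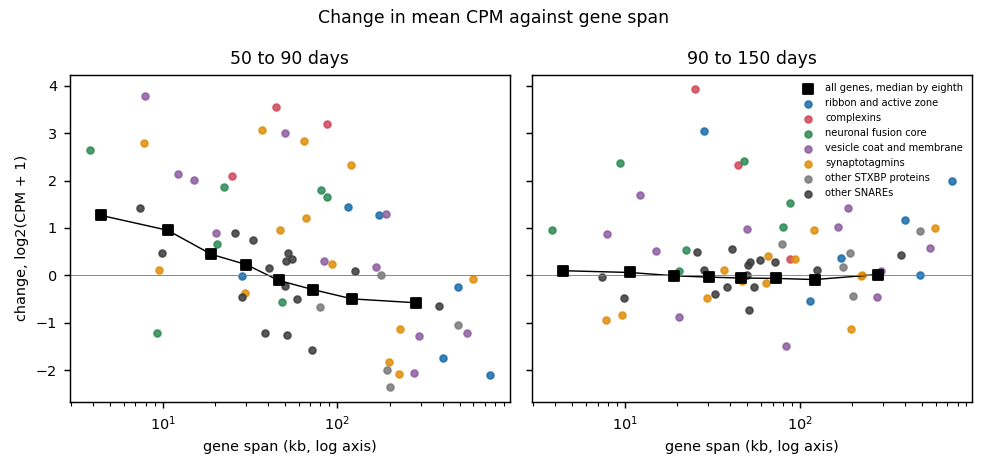
Change in mean CPM on the log2(CPM + 1) scale against gene span in kb (log axis) for the 61 genes of at least 5 CPM, coloured by role, from 50 to 90 days (left) and from 90 to 150 days (right); black squares are medians of all genes by eighth of span. The medians fall from 1.27 to -0.58 on the left and lie near 0 on the right.

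Other genes of the same pathway, from lists written with earlier results of these data known, are given for context. Of 25 further active zone and ribbon genes, 7 were at least 2-fold higher and 0 lower at 150 than at 90 days, and their median temporal to nasal log2 ratio at 150 days was 0.29. CABP4, the calcium-binding partner of CACNA1F, was 0 CPM temporally and 0 CPM nasally at 50 days, 0.657 and 0.282 CPM at 90 days, and 74.5 and 59.1 CPM at 150 days. CACNA2D4, an accessory subunit of that channel, was at 50 days 22.9 CPM in temporal and 14.7 CPM in nasal retina, at 90 days 32.9 and 17.6 CPM, and at 150 days 182 and 168 CPM. UNC13A (Munc13-1), which primes vesicles at conventional synapses, was 31 CPM temporally and 34 CPM nasally at 50 days, 46.4 and 36.7 CPM at 90 days, and 71.5 and 32.6 CPM at 150 days.

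Of 14 further vesicle membrane proteins, 2 were at least 2-fold higher and 0 lower at 150 than at 90 days, of 12 measured SNARE disassembly and tethering genes 4 and 0, and of 23 endocytosis genes 3 and 1, beside the 9.1% and 7.64% of all genes given above. Between the regions at 150 days, 1 of the 14, 1 of the 12 and 0 of the 23 were at least 2-fold higher temporally and 0 nasally.

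Vesicular transporters set the transmitter a vesicle holds. SLC17A7, the glutamate transporter of photoreceptors and bipolar cells, was 6.73 CPM temporally and 3.49 CPM nasally at 50 days, 144 and 83.4 CPM at 90 days, and 420.0 and 439 CPM at 150 days. SLC32A1, the GABA and glycine transporter of amacrine cells, was at 50 days 1.12 CPM in temporal and 1.41 CPM in nasal retina, at 90 days 32.4 and 30.6 CPM, and at 150 days 67 and 71.6 CPM. Of the 4 transporters that passed the expression minimum at 150 days, 2 were at least 2-fold higher temporally, SLC17A6 and SLC17A8, whereas SLC17A7 and SLC32A1 were within 2-fold. SLC17A8, the glutamate transporter of a class of amacrine cells, was 24.7 CPM temporally and 11.5 CPM nasally at 150 days, a log2 ratio of 1.04. NSF, the ATPase that pulls used SNAREs apart, was 104 CPM temporally and 88.7 CPM nasally at 50 days, 178 and 144 CPM at 90 days, and 479.8 and 361 CPM at 150 days. DNM1, the dynamin that cuts new vesicles from the membrane, was at 50 days 28 CPM in temporal and 32.9 CPM in nasal retina, at 90 days 108 and 74.2 CPM, and at 150 days 335 and 264 CPM.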

How the data were processed

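Total RNA of retinal punches was sequenced from temporal and nasal retina at 50 days (3 samples per region) and at 90 and 150 days (1 library per region, with paired-end reads per the series' description, although the study's methods name single-end reads). According to the study, ribosomal RNA was depleted and reads were processed with Bowtie2, Tophat and Cufflinks, with CummeRbund after it, on Mmul_1 with Ensembl annotation, although the labels name polyA RNA as the molecule. The submitters' processing notes list edgeR. Which of these tools made the read counts behind the CPM values is not stated. For the later ages the deposited values are CPM, which the authors scaled to effective library sizes. For 50 days the authors deposited a signal for each region, the mean of its samples in CPM, summing to 1.06e+06 temporally and 1.02e+06 nasally. Of 28633 gene IDs, 7120 carried no symbol. The miRNA table was not used here. Samples were grouped by their labels.

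The steps between CPM values gave back whole reads (tolerance 0.01 reads) for 100% of values. Ratios used log2(CPM + 1), medians took genes of at least 1 CPM on the higher side, and 2-fold calls took those of at least 5 CPM there. Region was tested across 90 and 150 days with limma 3.58.1 (eBayes with trend, age as covariate, genes of mean CPM of at least 1, two-sided, Benjamini-Hochberg over all genes tested, threshold 0.05) in R 4.3.3, and edgeR 4.0.16 and DESeq2 1.42.0 on recovered reads were alternatives. The fit was run on simulated libraries with no difference between ages and a fixed spread, to check that known fold changes were recovered. That check does not cover variation between fetuses or punches. Other alternatives varied the pseudocount, scaling, filters, the region used for age steps and the age term, and one chosen after seeing the data took out the median of genes of like span. Tables were handled in Python 3.11.15 with pandas 2.3.3, intervals came from SciPy 1.17.1, and plots from Matplotlib 3.10.9. Of the 69 genes, 59 IDs were in a newer gene name table, 57 of them under the same symbol.

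The synaptic genes, the lists and the rule for named genes were chosen with earlier results of these data known. Values in all columns are given for the up to 3 genes of highest CPM in each family, the ribbon and retina-typical genes, and the 6 genes with the widest ratio on each side at each age or the widest change in each direction at each step, of at least 5 CPM. The annotation used for span (T2T-MMU8v2.0) is of another build than the files, so no gene positions are given. Some genes that the rule names are left out of the text and plots but stay in the counts and medians.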

Additional observations from a re-analysis of the deposited data

Results flagged for a closer look

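For 5 genes the temporal to nasal ratio lay on one side of 1 at 90 days and on the other at 150 days, with 95% exact counting intervals that left out 1 at both ages. They were 5 of the 60 synaptic genes of at least 5 CPM at both ages, or 8.33%, against 13.1% of all 11418 such genes. Each ratio compares 2 libraries, and the difference between the ages was not tested.

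CTBP2, the source of the ribbon protein RIBEYE, went from 1.16-fold (1.12 to 1.20) at 90 days to 0.934-fold (0.905 to 0.965) at 150 days, a difference of -0.31 on the log2 scale. BSN, the scaffold bassoon, went the other way, from 0.853-fold (0.809 to 0.899) to 1.29-fold (1.21 to 1.38), a difference of 0.59. The gene listed as RAB3D went from 0.863-fold (0.787 to 0.947) to 1.45-fold (1.27 to 1.65), a difference of 0.72. STX6, a SNARE of the trans-Golgi network, went from 0.884-fold (0.798 to 0.978) to 1.13-fold (1.02 to 1.26), a difference of 0.35. VAMP3, a SNARE of recycling endosomes, went from 0.729-fold (0.619 to 0.859) to 1.22-fold (1.00 to 1.5), a difference of 0.69.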

How the results depend on the processing

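Of 199 comparisons of a value with an alternative, 147 stayed within the tolerance, 52 moved and 0 reversed. A count could not be labelled reversed, and a median only if its sign changed with a log2 shift above 0.1. The median log2 ratio at 50 days changed sign within that tolerance, from -0.022 to 0.0018 after rescaling by median ratios. Of those that moved, 33 were single genes whose change from 50 to 90 days shifted when the columns were rescaled by median ratios. That rescaling moved the median of all genes over this step by -0.13, just beyond the tolerance of 0.1. The median change from 50 to 90 days was 0.27 as reported, 0.15 after that rescaling, 0.029 in the nasal region alone and 0.45 less the median of genes of like span, which was chosen after seeing the data. The count of genes 2-fold lower from 90 to 150 days was 2 as reported, 1 with a pseudocount of 5, 1 in the temporal region alone and 5 in the nasal region alone. With a pseudocount of 0.5, 1 gene was 2-fold higher temporally at 90 days, against 0. In the region test, 1 synaptic gene was called as reported, 3 with a pseudocount of 5, 2 with a mean of at least 5 CPM, and 0 with edgeR, after rescaling, with no filter on low values or with no age term. Over all genes the calls numbered 163 as reported, 237 with a pseudocount of 5, 196 with a mean of at least 5 CPM, 85 with DESeq2, 4 after rescaling, 3 with no filter, and 0 with edgeR or no age term. At an unadjusted p under 0.05, edgeR found 19 synaptic genes higher temporally and DESeq2 17, while no age term left 0 of 23. The fit with no age term takes the change between the ages as residual spread, so its 0 calls follow largely from the design. The causes of the other shifts were not tested.

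The region fit already compares the regions within each age through its age term, and the values with no age term are given above. No paired analysis was possible because, by replicate number, the 50-day columns hold means and each later age has 1 library per region. Leaving out a library was not run, since it leaves 0 residual degrees of freedom. With 1 library per region, depth limits only the counting error. Genes under 5 CPM were left out of the 2-fold calls. Among them, SYT8, SYT12 and SYT15 had counting intervals that took in 1 at both later ages. For some others, such as STXBP2 at 90 days, the interval left out 1. At 50 days depth is unknown. Punch content, fetus and age cannot be told apart.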

Other observations

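In 12 of the 61 synaptic genes of at least 5 CPM the change from 90 to 150 days had opposite signs in the regions, or 19.7%, against 18.2% of all 12519 such genes. CPLX2 was 29.7 and then 51.8 CPM temporally but 27.8 and then 22.1 CPM nasally, and SYT13, a synaptotagmin without calcium binding, was 107 and then 113 CPM temporally but 86.5 and then 65.3 CPM nasally. SYT3 was 34 and then 42.6 CPM temporally but 28.6 and then 25.2 CPM nasally. The difference between regions in these changes was not tested.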
